A study of Mus musculus with 16 samples.

Results

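The Slc22 genes encode membrane transporters for organic ions, carnitine and urate, and 9 of them (Slc22a2, Slc22a4, Slc22a5, Slc22a6, Slc22a7, Slc22a8, Slc22a12, Slc22a13 and Slc22a18) were followed here in mouse kidney. They were taken by gene symbol from a table of 30277 genes, and all 9 were in it. The kidneys came from C57BL/6J mice aged 46 to 59 days, in 4 groups of 4: male KlKl, male control, female KlKl and female control. KlKl mice were homozygous for the recessive Klotho mutation, fully congenic on that strain, and were in renal failure per the labels. The controls had healthy kidneys and pooled 2 genotypes: male controls 1 and 2 and all 4 female controls were heterozygous (+/Kl), and male controls 3 and 4 were wild type (+/+). Polyadenylated RNA of whole kidney was sequenced, so that fewer tubule cells and less RNA per tubule cell cannot be told apart.

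The deposited values are TPM, a read count scaled for gene length and library size. In this table the length was the whole span of the gene, introns included. Recovered depth was 13025699 to 20102946 reads in the male libraries and 8207788 to 14502054 reads in the female ones. Kl itself stood at 0.258 to 1.49 TPM in male KlKl kidneys, against 7.82 to 11.7 TPM in male controls. In females it stood at 0.0728 to 0.222 TPM in KlKl kidneys and at 2.04 to 5.73 TPM in controls, so Kl separated the genotypes as labelled in both sexes. Of the 9 transporter genes, 8 passed the filter for testing (1 TPM reached by 4 or more libraries among the 16). Slc22a4 reached 1 TPM in 3 libraries and was described without a test on this scale. The library male KlKl 3 had the lowest Slc22a7 of all 16, and the comparisons of KlKl males are also given without it.

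Most of the drug, toxin and metabolite secretion of the kidney takes place in the proximal tubule. There, transporters on the blood side take organic anions and cations out of the plasma, and transporters on the urine side release or reclaim them. Slc22a6 (OAT1) and Slc22a8 (OAT3) are the classical blood-side organic anion transporters, and both carry the uraemic toxins that accumulate in renal failure. Slc22a7 (OAT2) is a further organic anion transporter. Slc22a2 (OCT2) takes up organic cations. Slc22a5 (OCTN2) reclaims carnitine from the urine and Slc22a4 (OCTN1) carries ergothioneine. Slc22a12 (URAT1) and Slc22a13 (OAT10) exchange urate on the urine side. Slc22a18 is an imprinted gene of the family whose substrates are less clear. In rodents several of these genes are known to be expressed at unequal levels in males and females.

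To order the genes by level, reads were divided by the exon length of each gene and set to a common library size of 1000000 reads by median ratios, since TPM on whole gene spans cannot be compared between genes. Slc22a12 was the most abundant in males, with 393 ± 129 scaled reads per kilobase of exon in KlKl kidneys and 551 ± 74.1 in controls (SD, n = 4 each). Slc22a18 came next in males, with 194 ± 37.9 in KlKl kidneys and 236 ± 29.4 in controls on the same scale. In females the order of these genes was turned round. Slc22a18 led with 236 ± 43.5 scaled reads per kilobase in KlKl kidneys and 280 ± 30.3 in controls, and Slc22a12 followed with 116 ± 11.3 in KlKl kidneys and 99.8 ± 32.4 in controls. Across libraries the ranges of the leading pair did not overlap in male controls, female KlKl or female controls, and they did overlap in male KlKl kidneys. Within each male KlKl library Slc22a12 was still above Slc22a18 (485 and 235, 404 and 183, 207 and 147, 475 and 210, by replicate).

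Below the leading pair the order depended on the group. Slc22a8 (137 ± 27.9 scaled reads per kilobase) and Slc22a6 (134 ± 43.6) were level in male KlKl kidneys, while in male controls Slc22a6 (189 ± 34.8) stood above Slc22a8 (118 ± 17.8). In females Slc22a8 came after the leading pair, with 87.4 ± 6.27 in KlKl kidneys and 92.7 ± 35.3 in controls, and Slc22a6 was lower, at 45.0 ± 14.5 in KlKl kidneys and 47.0 ± 12.6 in controls. Neighbours in the order mostly overlapped between libraries. Slc22a4 was lowest in every group, at 17.96 ± 1.46 in male KlKl, 19.5 ± 3.75 in male control, 14.2 ± 1.42 in female KlKl and 17.8 ± 3.75 in female control kidneys.

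**Figure D1:**
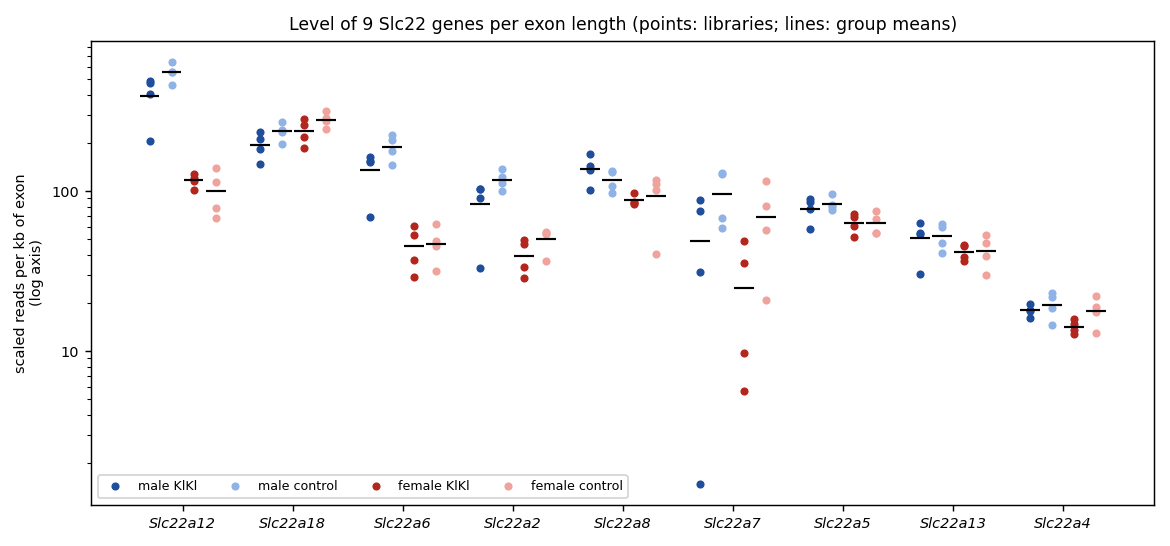
Scaled reads per kilobase of exon (log axis) of the 9 Slc22 genes, each point a library and each line a group mean, in male KlKl, male control, female KlKl and female control kidneys (n = 4 each). Slc22a12 leads in males and Slc22a18 in females, and the lowest point of Slc22a7 is male KlKl 3.

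The first comparison set males against females within a genotype. The urate transporter Slc22a12 had the largest sex difference of the 9 genes in both genotypes, followed by Slc22a6 and Slc22a2. Of the 8 genes tested, 6 (Slc22a2, Slc22a5, Slc22a6, Slc22a8, Slc22a12 and Slc22a13) were higher in males than in females at an adjusted p under 0.05 in KlKl kidneys, where 54.7% of all tested genes were called and 50.9% were called higher. The same 6 genes were called in controls, where 52.6% of all genes were called and 44.3% were called higher. On the deposited scale most genes were thus higher in males, with a median difference over all genes of 0.33 in KlKl kidneys and 0.26 in controls (log2). After the libraries were scaled by the median ratio over all tested genes, 3 of the 8 (Slc22a12, Slc22a6 and Slc22a2) were still called higher in each genotype. On that scale 36.2% of all genes were called in KlKl kidneys, 18.9% higher, and 48.5% in controls, 24.5% higher. Limma voom on recovered reads called the same 3 in KlKl kidneys (28.5% of all genes) and these with Slc22a5 in controls (39.9% of all genes). On deposited TPM the libraries of the sexes did not overlap for 4 of the 8 genes in KlKl kidneys (47.2% of all genes were higher without overlap) and for 4 of 8 in controls (41.3%).

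Markers of cell types differed between the sexes as well. The 4 markers of the last part of the proximal tubule (Slc7a13, Slc5a1, Atp11a and Slc6a18) summed to 51.6 to 97.9 TPM in male KlKl and 22.6 to 28.1 TPM in female KlKl kidneys, and to 66.2 to 76.3 TPM in male and 21.1 to 33.2 TPM in female controls. Of these 4, 2 were called higher in each genotype after median-ratio scaling (all genes: 18.9% in KlKl kidneys and 24.5% in controls). Called or not, 4 were higher in KlKl males and 3 in control males on that scale. The sum of the 6 markers of tubule injury was lower in male than in female controls, at 81.9 to 131 TPM and 188 to 266 TPM. Of 3 tested on TPM, 1 was called lower (8.3% of all genes). Voom tested all 6 and called 3 lower (18.6% of all genes), while 1 was higher without a call. Of 13 marker lists, 7 had sums in KlKl males above all KlKl females on deposited TPM. Of all tested genes, 47.2% were higher without overlap in that comparison. The 7 lists included erythrocytes (5 genes, 96.03 to 479 TPM in males and 16.5 to 58.1 TPM in females), hepatocytes (4 genes, 32.2 to 49.8 TPM and 6.72 to 12.9 TPM) and the thick ascending limb (3 genes, 155 to 235 TPM and 88.1 to 124 TPM). After median-ratio scaling 0 of 4 tested erythrocyte genes and 1 of 2 tested hepatocyte genes were called higher in KlKl males. Of 2 tested genes of the thick ascending limb, 1 was called higher and 1 lower. The part of these markers in the sex differences was not tested.

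Slc22a12 held 166, 122, 75.9 and 132 TPM in male KlKl kidneys, against 29.1, 27.5, 24.6 and 27.2 TPM in female KlKl kidneys. Its levels were 155, 134, 151 and 134 TPM in male controls and 31.0, 25.8, 14.7 and 13.0 TPM in female controls. No male library reached down to a female one in either genotype. The male mean was 4.58 times the female mean in KlKl kidneys and 6.79 times in controls. On the log2 scale Slc22a12 was higher in males by 2.10 in KlKl kidneys (SE 0.25, adjusted p = 1.88e-05) and by 2.79 in controls (SE 0.25, adjusted p = 1.71e-06), and after median-ratio scaling by 1.63 and 2.40. Without male KlKl 3 the KlKl difference was 2.32. Library names fell into series CFK (replicates 1 and 2) and CFdk (replicates 3 and 4), and within them the KlKl difference of Slc22a12 was 2.29 and 1.91 and the control difference 2.31 and 3.27. In males the CFK controls were +/Kl and the CFdk controls +/+. Nrxn2 lies across Slc22a12 on the other strand and had at most 8.65% as many reads.

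Slc22a6 held 65.3, 61.5, 31.9 and 53.7 TPM in male KlKl kidneys, against 19.1, 15.2, 11.3 and 7.77 TPM in female KlKl kidneys. In controls it held 63.0, 44.2, 77.0 and 65.0 TPM in males and 17.5, 13.8, 10.7 and 7.57 TPM in females. The sexes did not overlap in either genotype. Slc22a6 was higher in males by 1.93 in KlKl kidneys (log2, SE 0.29, adjusted p = 0.000107) and by 2.27 in controls (SE 0.29, adjusted p = 2.77e-05). The series CFK and CFdk gave 1.83 and 2.03 in KlKl kidneys and 1.70 and 2.84 in controls, and without male KlKl 3 the KlKl difference of Slc22a6 was 2.16.

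Slc22a2, the organic cation transporter, held 6.34, 4.94, 2.20 and 5.22 TPM in male KlKl kidneys and 2.26, 1.90, 1.26 and 1.29 TPM in female KlKl kidneys. Male KlKl 3 was the only male library within the female range. In controls Slc22a2 held 6.00, 5.38, 5.51 and 5.27 TPM in males and 2.23, 2.22, 1.88 and 1.26 TPM in females, with no overlap. Slc22a2 was higher in males by 1.04 in KlKl kidneys (log2, SE 0.21, adjusted p = 0.000759) and by 1.19 in controls (SE 0.21, adjusted p = 0.000285). Its KlKl difference was 1.29 without male KlKl 3.

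**Figure D2:**
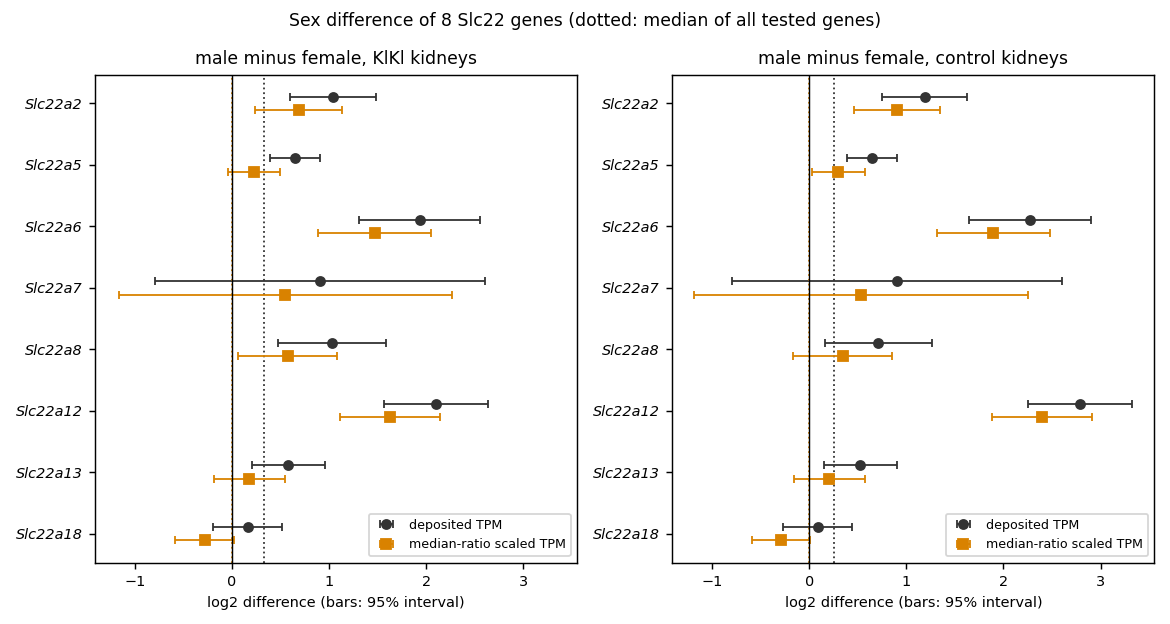
Log2 difference between males and females (limma, bars are 95% intervals) of 8 Slc22 genes in KlKl kidneys on the left and in controls on the right, on deposited TPM (circles) and on median-ratio scaled TPM (squares), with dotted lines at the median of all tested genes. Slc22a12 and Slc22a6 lie farthest right on both scales, and Slc22a18 changes sign between them.

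The remaining genes differed less, and their calls rested on the scale. Slc22a8, the neighbour of Slc22a6 on chromosome 19, held 20.4 to 25.7 TPM in male KlKl kidneys and 10.3 to 11.8 TPM in female KlKl kidneys, without overlap. In controls it held 12.9 to 21.3 TPM in males and 4.16 to 14.3 TPM in females, and the sexes overlapped. Slc22a8 was higher in males by 1.03 in KlKl kidneys (log2, SE 0.26, adjusted p = 0.00394) and by 0.71 in controls (SE 0.26, adjusted p = 0.0314), but after median-ratio scaling the adjusted p was 0.0733 and 0.239. The series CFK and CFdk gave 1.08 and 0.98 for Slc22a8 in KlKl kidneys but 0.09 and 1.34 in controls. In controls its call was lost when female control 3 (4.16 TPM) was left out, with a difference of 0.36, and likewise without male control 1, 3 or 4, with adjusted p up to 0.0956.

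Slc22a5, the carnitine transporter, averaged 8.97 ± 0.87 TPM in male KlKl and 5.38 ± 0.84 TPM in female KlKl kidneys, and 7.92 ± 0.50 TPM in male and 4.74 ± 0.73 TPM in female controls (SD, n = 4 each). The differences of 0.65 and 0.64 on the log2 scale (adjusted p = 0.000437 and 0.000481) came to 0.23 and 0.30 after median-ratio scaling (adjusted p = 0.167 and 0.062). Slc22a13 averaged 6.39 ± 1.35 TPM in male KlKl and 3.91 ± 0.59 TPM in female KlKl kidneys, and 5.45 ± 0.69 TPM in male and 3.58 ± 1.14 TPM in female controls. Its differences were 0.58 and 0.53 (adjusted p = 0.0122 and 0.0209), and 0.18 and 0.21 after scaling (adjusted p = 0.431 and 0.33). Without male KlKl 3 the KlKl differences between the sexes were 0.71 for Slc22a5, 1.09 for Slc22a8 and 0.72 for Slc22a13, each still called on deposited TPM. The control call of Slc22a13 was lost without male control 1, female control 3 or female control 4.

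Slc22a7 and Slc22a18 were not called between the sexes. Slc22a7 differed by 0.91 in KlKl kidneys (95% interval -0.79 to 2.61) and by 0.91 in controls (-0.79 to 2.61), intervals that leave room for a large difference either way. Without male KlKl 3 the limma difference of Slc22a7 in KlKl kidneys was 1.83 (SE 0.62, adjusted p = 0.0231). On that fit 7 of the 8 genes were past the threshold, with 51.3% of all genes called. The library left out was the KlKl male with the lowest Slc22a7, which raises the male value by construction. This call is therefore not taken as a sex difference of Slc22a7. Slc22a18 averaged 13.0 ± 2.61 TPM in male KlKl and 11.6 ± 2.55 TPM in female KlKl kidneys, and 13.0 ± 2.04 TPM in male and 12.1 ± 0.93 TPM in female controls. Its difference was 0.16 in KlKl kidneys and 0.09 in controls on deposited TPM, and -0.28 and -0.29 after median-ratio scaling, and its KlKl difference was 0.22 without male KlKl 3. Slc22a4, untested, held 0.811 to 1.08 TPM in male KlKl and 0.439 to 0.653 TPM in female KlKl kidneys, and 0.575 to 1.03 TPM in male and 0.401 to 0.686 TPM in female controls.

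**Figure D3:**
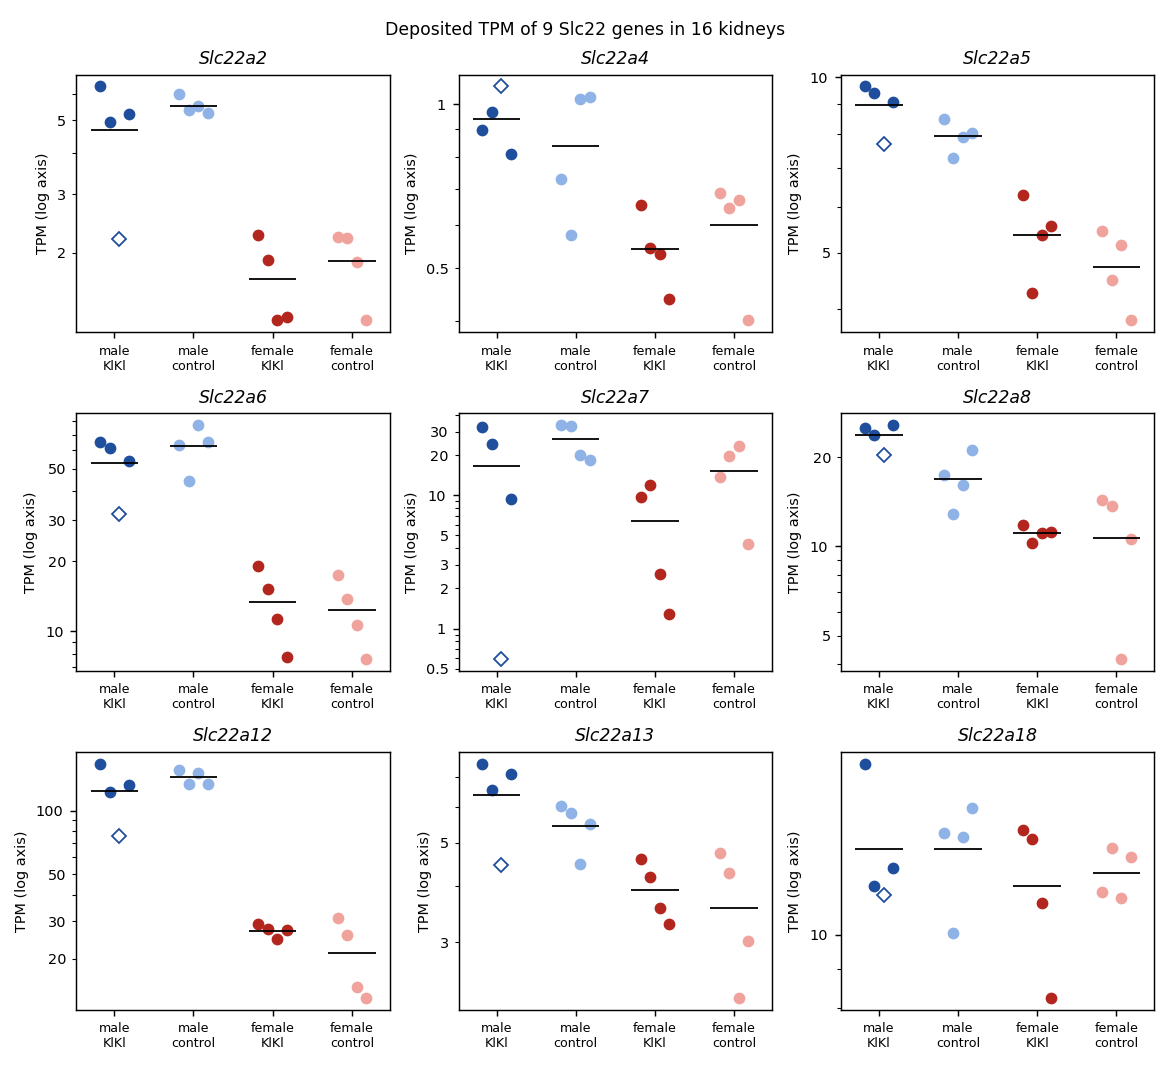
Deposited TPM (log axis) of the 9 Slc22 genes in male KlKl, male control, female KlKl and female control kidneys; points are libraries, lines are group means, and the open diamond is male KlKl 3. Slc22a12 and Slc22a6 separate the sexes without overlap in both genotypes, and the diamond is the lowest point of Slc22a7.

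Upstream sequences are shown for Slc22a12 and Slc22a6, which had the widest sex differences, and for Slc22a18, which was not called between the sexes. Each is the 250 bases before the RefSeq start of the gene, read 5′ to 3′ on the gene's strand, in build GRCm38.p6. Capitals mark AGAACA, a half-site of the androgen receptor. Slc22a12 lies at chr19:6543071-6543320 on the minus strand, Slc22a6 at chr19:8617746-8617995 on the plus strand and Slc22a18 at chr7:143473539-143473788 on the plus strand.
Slc22a12: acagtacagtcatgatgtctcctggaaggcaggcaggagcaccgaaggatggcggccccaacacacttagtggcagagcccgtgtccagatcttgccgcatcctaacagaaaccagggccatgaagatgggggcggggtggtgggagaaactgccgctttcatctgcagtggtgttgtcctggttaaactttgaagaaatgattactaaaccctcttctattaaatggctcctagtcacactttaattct
Slc22a6: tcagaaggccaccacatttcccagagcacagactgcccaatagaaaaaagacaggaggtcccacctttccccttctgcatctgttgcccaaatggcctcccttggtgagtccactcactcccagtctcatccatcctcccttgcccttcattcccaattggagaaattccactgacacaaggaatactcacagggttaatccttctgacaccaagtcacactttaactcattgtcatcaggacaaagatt
Slc22a18: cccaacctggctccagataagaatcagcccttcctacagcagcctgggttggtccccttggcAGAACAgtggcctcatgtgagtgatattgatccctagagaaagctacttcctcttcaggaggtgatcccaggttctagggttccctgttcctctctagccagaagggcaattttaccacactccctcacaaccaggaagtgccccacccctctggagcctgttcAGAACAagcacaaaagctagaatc

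AGAACA was searched on both strands in the upstream windows of the 8 genes that matched the table by symbol. It was found in Slc22a18 alone among the 8, against 16.1% of 32851 windows of the same length. CAAAGTCCA, a site of HNF4, was in none of the 8 and in 0.384% of all windows. These motifs do not overlap each other. A match describes letters, not binding, and no match says only that these letters are not in the window.

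The second comparison set KlKl against control kidneys within each sex, the question being which transporter genes changed with renal failure. None of the 8 tested Slc22 genes passed the adjusted threshold in males, in females, in the mean of both sexes or in the difference between the sexes. Few genes of any kind did so: 0.0993% of all tested genes were called in males, 0.0124% in females, 0.0372% in the mean of both sexes and 0.0% in the difference. At an unadjusted p under 0.05 by limma, 1 of the 8 passed in the mean of both sexes (Slc22a7) and 0 in the other 3 tests. The share of all genes past that unadjusted threshold is not given here, so no result is read from this count. Limma voom on recovered reads also called 0 of the 9 genes in these tests, and of 17435 genes it called 0.0344% in males, 0.0115% in females, 0.0229% in the mean and 0.0% in the difference. The median of all genes was 0.18 higher in KlKl males and 0.11 higher in KlKl females than in controls on deposited TPM (log2).

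Slc22a7 had the widest difference between KlKl and control means. It held 32.4, 24.5, 0.589 and 9.40 TPM in male KlKl kidneys, against 33.7, 33.4, 20.1 and 18.4 TPM in male controls. In females it held 9.66, 12.01, 2.56 and 1.29 TPM in KlKl kidneys, against 13.9, 19.6, 23.4 and 4.31 TPM in controls. KlKl libraries were the lowest in both sexes, but the groups overlapped, and within-group spread was wide. The differences were -1.28 in males (SE 0.80, 95% interval -2.98 to 0.42, adjusted p = 0.33) and -1.28 in females (SE 0.80, interval -2.98 to 0.42, adjusted p = 0.727). The mean over both sexes was -1.28 (SE 0.57, adjusted p = 0.176), and -0.82 without male KlKl 3 (SE 0.42, adjusted p = 0.276).

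Slc22a7 also varied between the name series, though not past the adjusted threshold. Its mean was lower in CFdk than in CFK libraries in 4 of 4 groups, by -1.57 on the log2 scale in a fit with the group as a term (SE 0.41, adjusted p = 0.838 over all genes, of which 0.0124% were called). Within CFK libraries the KlKl difference of Slc22a7 was -0.24 in males and -0.57 in females (2 against 2 each). Within CFdk libraries it was -2.32 in males and -1.99 in females. Without male KlKl 3 the male difference was -0.35. The means of Slc22a13, Slc22a2 and Slc22a12 were also lower in CFdk libraries in 4 of 4 groups, by -0.34, -0.35 and -0.41 (adjusted p = 0.838, 0.871 and 0.871), and that of Slc22a6 was lower in 3 of 4 groups (-0.43, adjusted p = 0.871).

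For the organic anion transporters on the blood side, Slc22a8 differed by 0.48 in KlKl males (SE 0.26, 95% interval -0.07 to 1.03, adjusted p = 0.291) and by 0.17 in KlKl females (interval -0.39 to 0.72). The female value of Slc22a8 turned to -0.19 without female control 3, the shallowest library (8207788 reads). That library had the lowest weight when limma weighted libraries by their fit (0.145). It also had the lowest mitochondrial share of all libraries (30.7% of TPM). Its mouse was 57 days old, and those of the other female controls were 47 or 48 days old. Its marker sums stood apart in both directions. The collecting duct was lower (43.7 TPM, with 91.2 to 105 in the other female controls) and erythrocytes were higher (114 TPM, with 3.31 to 72.4). The part of age, depth and these markers was not tested. Within the series CFK and CFdk the female value of Slc22a8 was -0.32 and 0.65. Its values in males were 25.1, 23.7, 20.4 and 25.7 TPM in KlKl kidneys and 17.4, 12.9, 16.2 and 21.3 TPM in controls. One KlKl male, replicate 3, stood within the control range. Slc22a6 differed by -0.25 in males (interval -0.87 to 0.37) and by 0.09 in females (-0.53 to 0.71), and the female value was -0.07 after median-ratio scaling. Without male KlKl 3 the male difference of Slc22a6 was -0.03 and that of Slc22a8 was 0.55. The male value of Slc22a6 turned between the series, with 0.26 within CFK and -0.76 within CFdk libraries. Its mean in CFK and CFdk was 63.4 and 42.8 TPM in KlKl males and 53.6 and 71.0 TPM in male controls. Name series and control genotype cannot be told apart in males.

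The urate transporter Slc22a12 differed by -0.26 in KlKl males (interval -0.80 to 0.28) and by 0.43 in KlKl females (-0.11 to 0.97). The difference between these effects was -0.69 (SE 0.36, interval -1.45 to 0.07, adjusted p = 1.00). Without male KlKl 3 the male value of Slc22a12 was -0.04 and the difference between the effects -0.47. The series CFK and CFdk gave 0.0 and 0.86 for Slc22a12 in females and -0.02 and -0.50 in males. In females the KlKl libraries lay between 24.6 and 29.1 TPM, inside the control range of 13.0 to 31.0 TPM. Slc22a13 differed by 0.18 in males (interval -0.19 to 0.56) and by 0.13 in females (-0.24 to 0.51), with signs that turned after median-ratio scaling (-0.03 and -0.003). Its male value was 0.32 without male KlKl 3, and its female value turned to -0.02 without female control 3.

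The cation and carnitine transporters also stayed within these limits. Slc22a2 differed by -0.27 in males (interval -0.71 to 0.17; -0.01 without male KlKl 3) and by -0.12 in females (-0.56 to 0.32). Slc22a5 differed by 0.16 in males (interval -0.10 to 0.41; -0.07 after median-ratio scaling and 0.22 without male KlKl 3) and by 0.15 in females (-0.10 to 0.41). Slc22a18 differed by -0.002 in males (interval -0.35 to 0.35) and by -0.07 in females (-0.43 to 0.28). When male KlKl 3 was left out, KlKl males lay above all male controls for Slc22a5, Slc22a8 and Slc22a13 on deposited TPM, a pattern that 14.9% of all tested genes showed. The difference of Slc22a18 in males turned positive (0.06) without male KlKl 3.

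**Figure D4:**
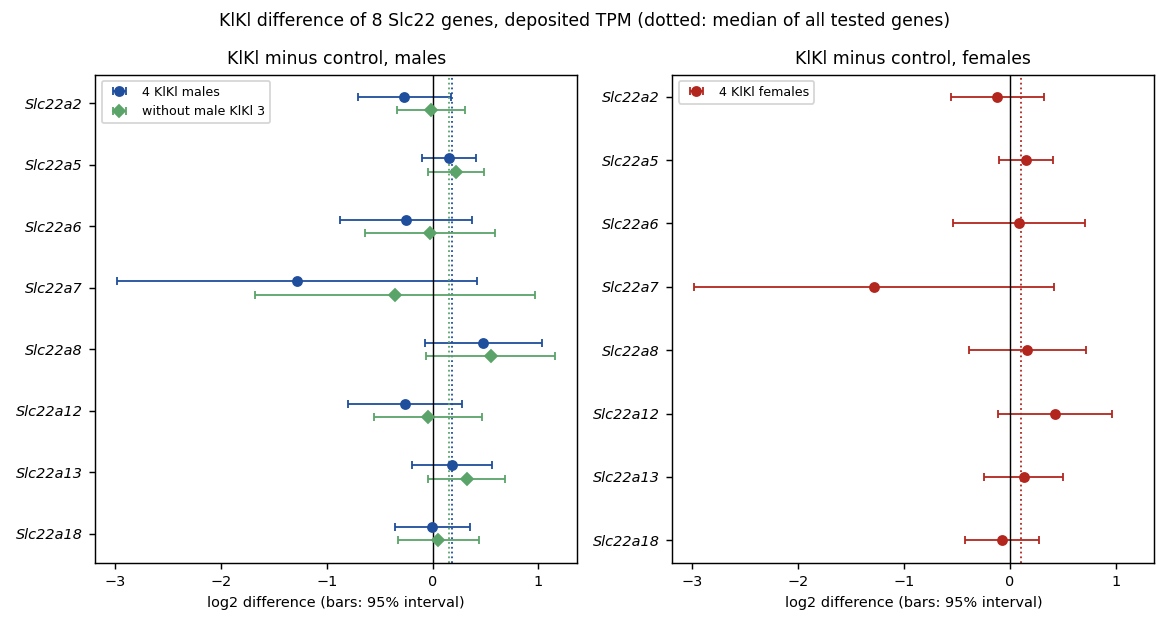
Log2 difference between KlKl and control kidneys (limma, bars are 95% intervals) of 8 Slc22 genes, for males on the left with all 4 KlKl libraries (circles) and without male KlKl 3 (diamonds), and for females on the right; dotted lines mark the median of all tested genes. Every interval of the fit with all libraries includes 0, and the Slc22a7 interval is the widest.

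Male KlKl 3 stood apart across much of the family. Compared with the mean of the male controls on median-ratio scaled values, it was lower by -4.12 for Slc22a7, -1.27 for Slc22a6, -1.27 for Slc22a12 and -1.25 for Slc22a2 (log2). Slc22a13 (-0.52), Slc22a18 (-0.50) and Slc22a5 (-0.35) were nearer to the controls, and Slc22a8 (-0.07) and Slc22a4 (0.01) were level with them. In the other 3 KlKl males the corresponding values lay between -0.41 and 0.54 for every gene but Slc22a7, which was at -1.40 in male KlKl 4. Family genes outside the 9 were low in the same library, among them Slc22a30 (-1.47), Slc22a19 (-1.43), Slc22a28 (-1.24) and Slc22a26 (-1.12). Among females, KlKl 3 and KlKl 4 were low for Slc22a7 (-2.23 and -2.75) and Slc22a19 (-0.78 and -1.12).

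Other values of male KlKl 3 moved with these genes. Slc7a13, a transporter of the last part of the proximal tubule, was at 4.53 TPM there and at 20.6 to 44.4 TPM in the other KlKl males. Slc5a1 and Atp11a of the same segment were also below the remaining KlKl males, but Slc6a18 was above them, at 43.3 TPM with 33.75 to 41.7 TPM. These 4 markers summed to 51.6 TPM in male KlKl 3, with 64.9 to 97.9 for the remaining KlKl males and 66.2 to 76.3 in male controls. The 6 markers of the first parts (Slc5a2, Slc5a12, Slc34a1, Slc6a19, Lrp2 and Cubn) summed to 282 TPM, within the 203 to 283 of the remaining KlKl males. Among them Slc6a19 (21.1 TPM, with 6.64 to 9.30 in the remaining KlKl males), Slc34a1 and Slc5a12 were higher in male KlKl 3 and Lrp2 was lower. Its sums also exceeded the remaining KlKl males for the thick ascending limb (235 TPM, with 155 to 211), the distal convoluted tubule (18.5 TPM, with 12.9 to 14.5), the collecting duct (93.02 TPM, with 44.0 to 82.5) and the adrenal cortex (1.06 TPM, with 0.410 to 0.553). The 6 macrophage markers summed to 50.0 TPM, with 22.4 to 35.95 in the remaining KlKl males, and the 6 markers of tubule injury to 286 TPM, against 137 to 243. None of these marker genes was at 0 in all libraries, and their part in the low transporter values was not tested. In the comparison of all KlKl with control males, 3 marker sums did not overlap: hepatocytes (32.2 to 49.8 TPM in KlKl and 6.25 to 26.0 TPM in control kidneys), the thick ascending limb (155 to 235 TPM and 115 to 141 TPM) and tubule injury (137 to 286 TPM and 81.9 to 131 TPM). In females the sums that did not overlap were tubule injury (279 to 308 TPM in KlKl and 188 to 266 TPM in control kidneys), macrophages (28.3 to 30.0 TPM and 17.3 to 22.9 TPM) and the first parts of the proximal tubule (210 to 230 TPM and 101 to 209 TPM). These sums are on deposited TPM, and the share of all genes without overlap in these comparisons is not given here. Of the tested genes of these lists, 1 of 2 hepatocyte genes was called in males, and 0 after median-ratio scaling. None of the others was called in these comparisons on either scale. For the first parts in females the median difference was 0.151, and 0.041 after that scaling. The part of these markers in the KlKl differences was not tested.

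**Figure D5:**
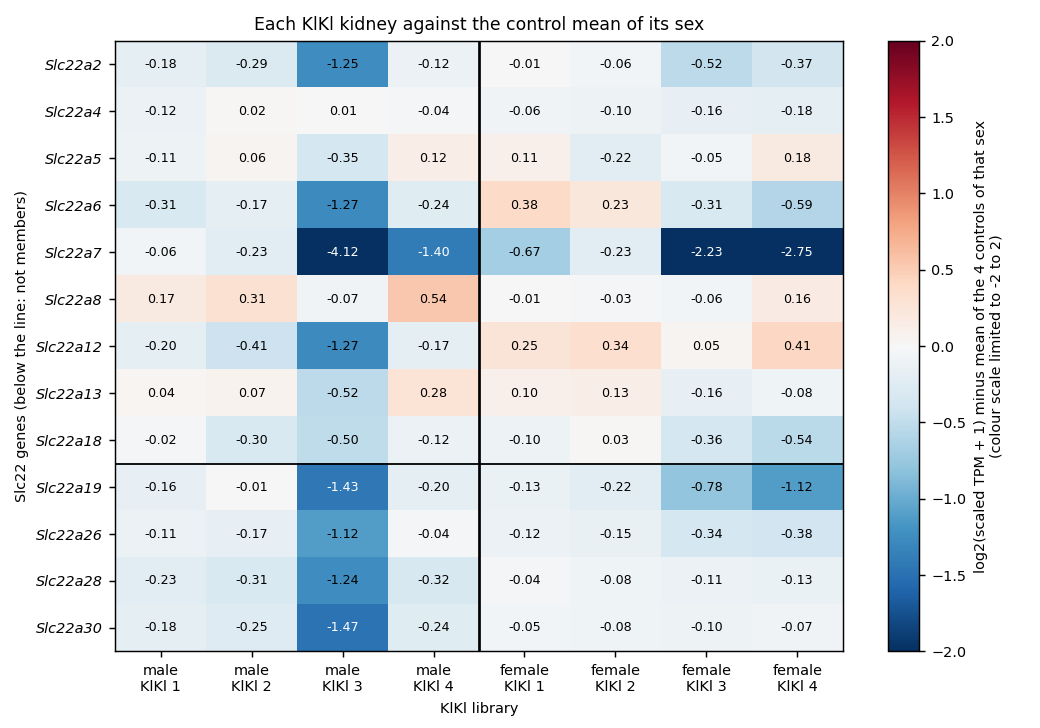
Each KlKl library minus the mean of the 4 controls of its sex, on log2(median-ratio scaled TPM + 1), for the 9 Slc22 genes and, below the line, 4 further genes of the family. Male KlKl 3 is the darkest column, with Slc22a7 at -4.12, and female KlKl 3 and 4 are low for Slc22a7 (-2.23 and -2.75).

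Ratios of 2 transporter genes within a library do not depend on how the libraries are scaled. The ratio of Slc22a6 to Slc22a8 TPM was 2.60, 2.59, 1.56 and 2.09 in male KlKl kidneys and 3.62, 3.43, 4.77 and 3.06 in male controls. Every KlKl male lay below every control male (log2 difference -0.76, exact permutation p = 0.0286, the smallest that 4 against 4 libraries allow). In females the ratio was 1.62, 1.47, 1.01 and 0.692 in KlKl kidneys and 1.22, 1.00, 2.56 and 0.713 in controls, without a separation. Likewise Slc22a12 over Slc22a13 was 17.02 to 22.2 in male KlKl kidneys and 23.02 to 33.7 in male controls (exact two-sided permutation p = 0.0286). Slc22a2 over Slc22a5 was 0.286 to 0.656 in male KlKl kidneys and 0.657 to 0.739 in male controls (exact permutation p = 0.0286). These were 3 of 4 ratios, tested in 4 comparisons each and chosen after the values had been seen, and over the 16 tests the adjusted p of each was 0.0654. When male KlKl 3 was left out, the remaining KlKl males were still below all male controls in these ratios, by -0.60, -0.42 and -0.26 (log2), and the exact permutation p was 0.0571, the smallest that 3 against 4 libraries allow. The remaining ratio, Slc22a6 over Slc22a7, was 2.01 to 54.1 in male KlKl kidneys and 1.32 to 3.83 in male controls, with overlap. Its log2 difference was 1.39 (exact permutation p = 0.286), and 0.353 without male KlKl 3. In females the KlKl differences were 0.275 for Slc22a12 over Slc22a13, -0.37 for Slc22a2 over Slc22a5 and 1.635 for Slc22a6 over Slc22a7 (log2). Their exact permutation p was 0.114, 0.229 and 0.0571.

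Partner genes of the same processes were counted beside the Slc22 genes. Of 21 partners in organic ion and urate transport, 13 were tested, and 12 were higher in males in KlKl kidneys and 11 in controls on deposited TPM (6 and 8 after median-ratio scaling), with none lower on either scale. The shares of all genes called higher were 50.9% and 44.3% on deposited TPM and 18.9% and 24.5% after scaling. Voom tested 20 partners and called 8 higher and 1 lower in KlKl kidneys (all genes: 15.2% higher and 13.3% lower) and 9 higher and 2 lower in controls (21.2% and 18.6%). Those lower in males were Slc17a2 in both genotypes and Abcc4 in controls. Slc17a3, a urate and organic anion transporter of the urine side, averaged 18.9 ± 9.66 TPM in male KlKl and 4.56 ± 1.39 TPM in female KlKl kidneys, and 22.1 ± 2.06 TPM in male and 6.64 ± 3.35 TPM in female controls. Pdzk1, the scaffold that binds URAT1, averaged 25.6 ± 5.21 TPM in male KlKl and 15.8 ± 1.36 TPM in female KlKl kidneys, and 24.5 ± 2.31 TPM in male and 13.5 ± 2.94 TPM in female controls. All 5 tested genes of carnitine handling were higher in males in both genotypes and on both scales, among them Aldh9a1, of the carnitine synthesis pathway (23.1 ± 2.19 TPM in male KlKl, 9.49 ± 1.06 TPM in female KlKl, 21.01 ± 2.96 TPM in male control and 8.28 ± 0.99 TPM in female control kidneys). Of the 6 genes of urate formation and breakdown only Pnp, a purine phosphorylase, passed the filter on TPM, and it was higher in males in both genotypes and on both scales. Voom tested 5 of the 6 and called Pnp alone.

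Of 16 other family members listed, 14 were in the table and 6 were tested, and 4 were called higher in males in each genotype (3 after scaling). The 3 that held were Slc22a26, Slc22a28 and Slc22a30. Of all genes, 50.9% were called higher in KlKl kidneys and 44.3% in controls (18.9% and 24.5% after scaling). Voom, which tested all 14, called 3 higher and 3 lower in KlKl males than KlKl females (all genes: 15.2% higher and 13.3% lower). In controls it called 4 higher and 4 lower (21.2% and 18.6%). Slc22a15, Slc22a27 and Slc22a29 were lower in males in both genotypes and Slc22a14 in controls. Slc22a30 averaged 1.76 ± 1.05 TPM in male KlKl and 0.0868 ± 0.0178 TPM in female KlKl kidneys, and 2.45 ± 0.28 TPM in male and 0.126 ± 0.058 TPM in female controls. Among 11 candidate regulators 6 were tested, of which 4 were higher in males in KlKl kidneys (3 after scaling) and 5 in controls, where Prlr, the prolactin receptor, was lower (same on both scales). Prlr averaged 1.03 ± 0.53 TPM in male KlKl and 0.246 ± 0.191 TPM in male control kidneys, a difference of 0.68 that was not called (SE 0.17, adjusted p = 0.16; 0.52 without male KlKl 3). No gene of these 5 lists was called between KlKl and control kidneys in either sex.

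Across the 16 libraries the Slc22 genes were compared with all tested genes by Pearson's r of log2(TPM + 1), a description that carries the sex difference and the library scale with it. Slc22a7 was most like Slc22a19, another gene of the family (r = 0.951, and 0.945 after the group means were removed). Slc22a6 was most like Mlec (r = 0.987), Slc22a12 most like Acss2 (r = 0.987), Slc22a2 most like Acy3 (r = 0.985), Slc22a5 most like Ptgr2 (r = 0.967), Slc22a8 most like Ak3 (r = 0.954), Slc22a13 most like Slc27a2 (r = 0.95) and Slc22a18 most like Psmb3 (r = 0.91). Between members, Slc22a6 and Slc22a12 had r = 0.969, and Slc22a7 and Slc22a8 had r = 0.094. After the group means were removed Slc22a2 and Slc22a7 had r = 0.911, over libraries that include male KlKl 3.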

How the data were processed

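Polyadenylated kidney RNA was measured in 16 libraries, grouped by the sex and genotype in the labels. The authors deposited TPM, made with Partek on mm39 per the submitters' processing notes. No source used here names the aligner, the annotation or the counting rule (each is not given). Tested on the values, the TPM follow reads plus 0.0001 over the gene span, scaled to a fixed total near 309446, and 80.9% of values of up to 20 reads came out whole within 0.1 reads. A repeated Kl row was counted once, and 0 columns belonged to no sample.

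Values were log2(TPM + 1), which understates differences of low genes. Limma 3.58.1 (R 4.3.3) fitted the 4 group means with a mean-variance trend to 8059 genes, with Benjamini-Hochberg adjustment over all of them and a threshold of 0.05. Limma voom on recovered reads was an alternative. Levels per exon used GENCODE M21 exon lengths matched by Ensembl ID. Ratios were tested by exact two-sided permutation. The fit was tested on simulated data. Named were the 9 genes, the 2 genes most like each by r (1 shown), and called or abundant genes of the lists. The members and lists were chosen with earlier results of these data known. Replicate numbers did not pair the libraries: deviations of same-numbered libraries correlated at -0.22 to 0.22, and 5 of 24 pairs were over 0.1. Limma p-values set a group difference against the spread between these libraries, pooled over the 4 groups and moderated with the trend over all tested genes. Permutation p-values of the ratios come from regrouping these libraries. 1 gene of the regulator list is not reported here by name.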

Additional observations from a re-analysis of the deposited data

Results flagged for a closer look

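Slc22a4 in female control 4 was at 0.401 TPM, set apart from the other 3 female controls, of which the nearest was at 0.645 TPM. The gap was 0.855 of the range of the group on deposited TPM. After median-ratio scaling female control 4 was at 0.536 and the other female controls were at 0.773, 0.730 and 0.928, so it stood less apart. In all, 36 groups of 4 libraries were examined, and chance sets apart about 1 in 20.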

How the results depend on the processing

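The count of Slc22 genes called between males and females fell to 3, against 6 on deposited TPM, in KlKl kidneys under median-ratio scaling, under limma voom on recovered reads with median-ratio or total-count scaling, and under median-ratio scaling with leave-one-out of male KlKl 3. In controls it fell to 3 under median-ratio scaling. Total-count voom and scaling without male KlKl 3 were chosen after seeing the data. Leaving out each library gave 6 to 7 calls in KlKl kidneys and 4 to 6 in controls. No Slc22 gene was called between KlKl and control kidneys under any alternative run. With the replicate number as a replicate block the counts were 6 in KlKl kidneys, 6 in controls and 0 in the other comparisons. The numbers do not pair the libraries, of which 5 of 16 correlate best with their own number.

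Signs turned for values near 0. In KlKl against control males, Slc22a5 was -0.0688 under median-ratio scaling, -0.0063 under protein-coding scaling and -0.12 by voom; Slc22a13 was -0.0325 under median-ratio scaling and -0.088 by voom; Slc22a18 was 0.0608 with age as a covariate, 0.122 with heterozygous controls only and 0.0553 without female control 3 and male KlKl 3. In KlKl against control females, Slc22a6 was -0.0738 under median-ratio scaling (-0.0737 without male KlKl 3) and -0.0739 by voom; Slc22a8 was -0.23 with array weights and -0.19 without both libraries; Slc22a13 was -0.0033 under median-ratio scaling (-0.0035 without male KlKl 3), -0.0442 with array weights and -0.0212 without both libraries. Between the sexes Slc22a18 was -0.28 in KlKl kidneys under median-ratio scaling (-0.19 without male KlKl 3), -0.20 under protein-coding scaling, -0.29 by voom and -0.25 by total-count voom. In controls it was -0.29 under median-ratio scaling (-0.29 without male KlKl 3), -0.17 under protein-coding scaling, -0.25 by voom, -0.25 by total-count voom and -0.0359 with heterozygous controls only. Leaving out single libraries gave, in KlKl against control kidneys, -0.125 to 0.059 for Slc22a18 in males and, in females, -0.10 to 0.30 for Slc22a6, -0.19 to 0.34 for Slc22a8, -0.0212 to 0.25 for Slc22a13 and -0.16 to 0.0671 for Slc22a18. The cause of these changes was not tested.

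Slc22a7 was called higher in KlKl males than KlKl females without male KlKl 3 (1.83), without both libraries (1.83) and with array weights (1.46, adjusted p = 0.0355). Male KlKl 3 held the lowest Slc22a7 of the KlKl males. Leaving it out or weighting it down therefore raises the male value by construction. Array weights were lowest for female control 3 (0.145) and male KlKl 3 (0.251). Female libraries are the shallower ones, and the recovered reads of Slc22a7 in male KlKl 3 number 49.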
